A study of Homo sapiens with 6 samples.

Results

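The MYC, MAX and MXD network is described here in MIA PaCa-2 cells that were treated with recombinant human cytoglobin (rhCYGB) or left as Control. MIA PaCa-2 is an established human pancreatic carcinoma line. The 10 genes were chosen by symbol from the 35993 genes of the deposited RNA-seq table: MYC, MYCN and MYCL, their partner MAX, the antagonists MXD1, MXD3, MXD4, MXI1 and MNT, and the MAX-like gene MLX. The rule names symbols and sets no condition on their levels. Each group held 3 libraries. All cells were grown in DMEM with 10% FBS and 2.5% horse serum, were given 24 h in 24-well plates, and were then moved to medium with 1% FBS. On the following day the rhCYGB group received 4 µM of the protein for 48 h. The protein was made in E. coli with a histidine tag, and the Control cells were untreated. Only this line was sequenced, and the labels do not say whether the 3 libraries of a group came from separate cultures, so each p-value measures only the spread between these libraries.

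MYC proteins are basic helix-loop-helix leucine zipper transcription factors. They bind DNA as dimers with MAX, most tightly at the E-box CACGTG, and recruit histone acetyltransferases that favour transcription. The MXD proteins, MXI1 and MNT compete with MYC for MAX and for the same sites, and recruit the SIN3 and histone deacetylase complex, which represses. MLX takes the place of MAX with some of these antagonists and also joins the network to the glucose-responsive factors MLXIP and MLXIPL. MYC is a well-known driver of growth, ribosome production and metabolism in pancreatic carcinoma.

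The E-box is shown first, since it is the sequence that every dimer of the network reads and several members carry it at their own promoters. RefSeq promoter windows of 300 bases, from 250 before to 50 after the transcription start on GRCh38.p14, were found for 9 of the 10 members, with 12 windows in all. MYC had no entry. The letters CACGTG, which read the same on both strands, were present in 3 of these 12 windows, 1 each for MXD4, MNT and MLX. Among all 35116 windows 7.26% held the motif, and among the 15502 windows of genes tested 9.35% did. The 3 stretches are given with the motif in capitals, on the strand of the gene. Between the motif and the transcription start lay 232 bases at MXD4 (chr4:2262330-2262359, minus strand), 187 bases at MNT (chr17:2401236-2401265, minus strand) and 44 bases at MLX (chr17:42567038-42567067, plus strand).
MXD4: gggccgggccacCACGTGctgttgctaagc
MNT: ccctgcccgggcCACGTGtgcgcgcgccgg
MLX: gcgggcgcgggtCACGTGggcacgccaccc
A match to these letters is a description of the sequence and does not show that any protein was bound there. As described further on, the mRNA of MXD4 was lower after rhCYGB and those of MNT and MLX were higher.

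The 6 libraries held between 34838399 and 42271299 counts. The groups stood well apart: the lowest correlation of log2 CPM within a group was 0.987, the highest between groups was 0.929, and 27.1% of the 14728 genes tested passed an adjusted p of 0.05 with a change of 2-fold or more. CPM here means counts scaled to library size with TMM factors, which sets the middle of the expression distribution equal between libraries. A change in the total RNA of a cell is therefore not seen. In bulk RNA, fewer cells expressing a gene and less of its RNA per cell cannot be told apart. CYGB itself had 0 counts in every library. Of the epithelial keratins, KRT8 and KRT18 were abundant, while KRT7 was at 0.589 CPM in Control and 0.823 CPM after rhCYGB. EPCAM had 0 counts in every library, and CDH1 had 2 counts in Control 1 and none elsewhere. The summed level of the 7 ductal epithelial markers was 3864 to 4094 CPM in Control and 2968 to 3174 CPM after rhCYGB. KRT8, KRT19 and MUC1 were lower, with log2 fold changes of -0.81, -0.61 and -1.40. KRT18, with 0.04, and KRT7, with 0.49, did not pass an adjusted p of 0.05. The 3 mesenchymal markers, of which VIM made up most and CDH2 had 0 counts, summed to 7955 to 8134 CPM in Control and 11630 to 12140 CPM after rhCYGB. The part of these differences in the results on the network was not tested. Acinar and endocrine markers were close to 0, with PRSS1, CPA1, INS and GCG at 0 counts in every library, and their sum was low throughout. Of the 6 stellate and fibroblast markers DCN was at 0, COL3A1 was at 3.99 CPM in Control and 0.119 CPM after rhCYGB, and ACTA2 was at 5.61 and 5.30 CPM. Their sum was 9.72 to 9.98 CPM in Control and 5.22 to 5.67 CPM after rhCYGB. PTPRC, CD3E and PECAM1 were also at 0, although CD68 and CDH5 had counts. The 5 leukocyte and endothelial markers summed to 143.1 to 159.1 CPM in Control and 81.89 to 86.03 CPM after rhCYGB. CD68 and CDH5 went opposite ways: CD68 was higher after rhCYGB, with a log2 fold change of 0.99, and CDH5 was lower, with -3.26.

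Of the 10 members, 9 passed the filter on low counts and all of these differed between the groups. MYC, MYCL, MAX, MLX, MXD1, MXI1 and MNT were higher after rhCYGB, and MXD3 and MXD4 were lower. By edgeR's quasi-likelihood test, with p-values adjusted by the Benjamini-Hochberg method for all 14728 genes, 7 members were higher and 2 were lower at an adjusted p under 0.05, where 39% of all genes tested were higher and 38.6% were lower. With a change of 2-fold or more in addition, 5 were higher and 2 lower, against 12.4% and 14.7% of all genes tested. The median log2 fold change of the 9 members was 1.43, and that of all genes tested was -0.0046. The libraries of the groups did not overlap in CPM for any of the 9, a separation that 79.5% of all genes tested also showed. The direction and call of every tested member were kept under all 15 alternative settings.

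MYC, the member with the highest mRNA level, rose 4.64-fold. The gene (4609, chr8:128747680-128755197 in the coordinates of the deposited tables, whose build is not named) had 367, 352 and 351 CPM in the Control libraries. It had 1668, 1600 and 1695 CPM in the rhCYGB libraries. All 3 treated libraries thus stood far above all 3 Control libraries, and the spread within each group was small. The log2 fold change was 2.21 ± 0.036 (SE), with an adjusted p of 3.64e-16 by edgeR's quasi-likelihood test (Benjamini-Hochberg). The deposited FPKM divide by transcript length and, unlike CPM here, carry no TMM factors. On that scale MYC averaged 83.9 ± 1.64 (SD, n = 3) in Control and 340 ± 17.9 (SD, n = 3) after rhCYGB. Among the genes with an FPKM above 0, numbering 17204 to 18066 per library, MYC ranked between 698 and 731 in Control and between 156 and 168 after rhCYGB.

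MYCL, the paralog first described in lung cancer, had the largest fold change of the 9 members by edgeR but remained a low transcript. Its counts were 49, 67 and 77 in Control and 807, 664 and 674 after rhCYGB, with no overlap. The gene (4610, chr1:40361100-40367589) averaged 1.57 ± 0.293 CPM (SD, n = 3) in Control and 20.0 ± 1.72 CPM (SD, n = 3) after rhCYGB. This was a 12.7-fold rise, with a log2 fold change of 3.67 ± 0.13 (SE) and an adjusted p of 1.03e-12 by edgeR's quasi-likelihood test (Benjamini-Hochberg). By limma on log2(FPKM + 1), a scale that shrinks the change of low genes, the log2 difference was 2.15, smaller in size than the -2.49 of MXD3 on that scale. MYCN, the paralog known from neuroblastoma (4613, chr2:16080672-16087126), had 0 counts in all 6 libraries, as did the antisense gene MYCNOS that overlaps it. At these depths a count of 0 allows a level of up to 0.0669 to 0.0902 CPM per library, counting 3 reads as the limit.

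MAX, the shared partner of the MYC and MXD proteins, changed least of the 9. The gene (4149, chr14:65472819-65569413) had 53.5, 51.3 and 52.4 CPM in the Control libraries. After rhCYGB it had 68.8, 69.3 and 68.4 CPM. The groups did not overlap, yet the difference was small beside that of the other members, with a log2 fold change of 0.40 ± 0.043 (SE) and an adjusted p of 5.63e-07 by edgeR's quasi-likelihood test (Benjamini-Hochberg). Scaling by total counts alone lowered it to 0.23. MAX shares part of its span with FNTB, which averaged 14.9 CPM in Control and 4.56 CPM after rhCYGB, and whether reads were counted by strand is not given in the sources used here.

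MLX (6945, chr17:40719078-40725221), whose promoter E-box is shown above, rose 1.57-fold. It had 54.4, 56.7 and 64.5 CPM in Control and 91.6, 89.1 and 95.1 CPM after rhCYGB. The Control libraries were more spread than the treated ones, but none reached the lowest treated library. The log2 fold change was 0.65 ± 0.057 (SE), with an adjusted p of 4.81e-08 by edgeR's quasi-likelihood test (Benjamini-Hochberg). PSMC3IP, which overlaps MLX, was at 8.43 CPM in Control and 5.46 CPM after rhCYGB.

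**Figure D1:**
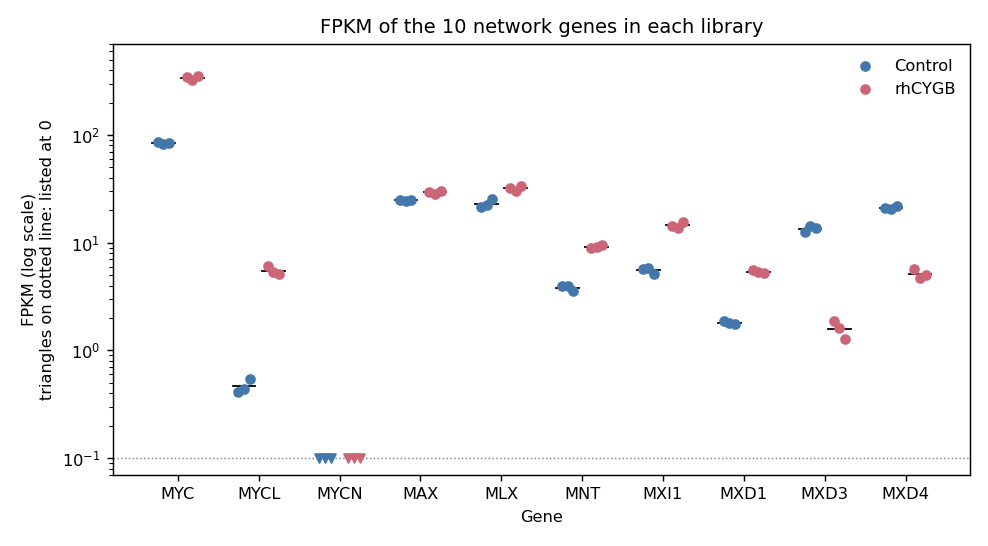
FPKM of each network member on a log axis, with a point for each Control and each rhCYGB library, a short line at each group mean, and triangles on the dotted line for values listed at 0. MYC lies highest in both groups, MXD3 and MXD4 are lower in all 3 rhCYGB libraries, and the other members with counts are higher in them, while MYCN is at 0.

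Among the antagonists, MXD1, MXI1 and MNT rose by factors close to one another. MXD1 (4084, chr2:70142173-70170077), which is known to be induced as cells leave the cell cycle and differentiate, had 11.2, 10.8 and 10.4 CPM in Control. It had 37.2, 36.8 and 34.3 CPM after rhCYGB, 3.35-fold higher. The log2 fold change was 1.74 ± 0.063 (SE), with an adjusted p of 1.47e-12 by edgeR's quasi-likelihood test (Benjamini-Hochberg). Each treated library held about the same amount, and none came near the Control range.

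MXI1 (4601, chr10:111967363-112047123), an antagonist that is also a target of hypoxia-inducible factor, had 20.1, 20.3 and 18.1 CPM in Control. After rhCYGB it had 55.9, 55.5 and 60.2 CPM, which was 2.93-fold higher (log2 fold change 1.55 ± 0.059, SE; adjusted p = 2.53e-12, same test and adjustment). MNT (4335, chr17:2287367-2304354), a widely expressed antagonist, had 21.2, 20.8 and 18.8 CPM in Control and 52.8, 55.5 and 55.4 CPM after rhCYGB. It rose 2.69-fold (log2 fold change 1.43 ± 0.057, SE; adjusted p = 4.31e-12, same test and adjustment). For both genes the lowest treated library was well above the highest Control library.

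MXD3 and MXD4 went the other way. MXD3 (83463, chr5:176732500-176738899), the family member known to be expressed in proliferating cells in S phase, had 561, 763 and 654 counts in Control and 103, 83 and 77 counts after rhCYGB. Its mean of 16.0 ± 0.983 CPM (SD, n = 3) fell to 2.45 ± 0.344 CPM (SD, n = 3), 6.54-fold lower. The log2 fold change was -2.71 ± 0.118 (SE), with an adjusted p of 1.15e-11 by edgeR's quasi-likelihood test (Benjamini-Hochberg). Its neighbour PRELID1 overlaps it and is far more abundant, at 279 CPM in Control and 176 CPM after rhCYGB. Whether reads of PRELID1 were counted for MXD3 was not tested.

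MXD4 (10608, chr4:2249159-2263836), the antagonist with the highest Control level, had 88.2, 85.0 and 89.7 CPM in Control. It had 26.4, 22.6 and 22.8 CPM after rhCYGB, 3.66-fold lower. The log2 fold change was -1.87 ± 0.059 (SE), with an adjusted p of 3.09e-13 by edgeR's quasi-likelihood test (Benjamini-Hochberg). The groups were far apart, and the spread within each was small.

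**Figure D2:**
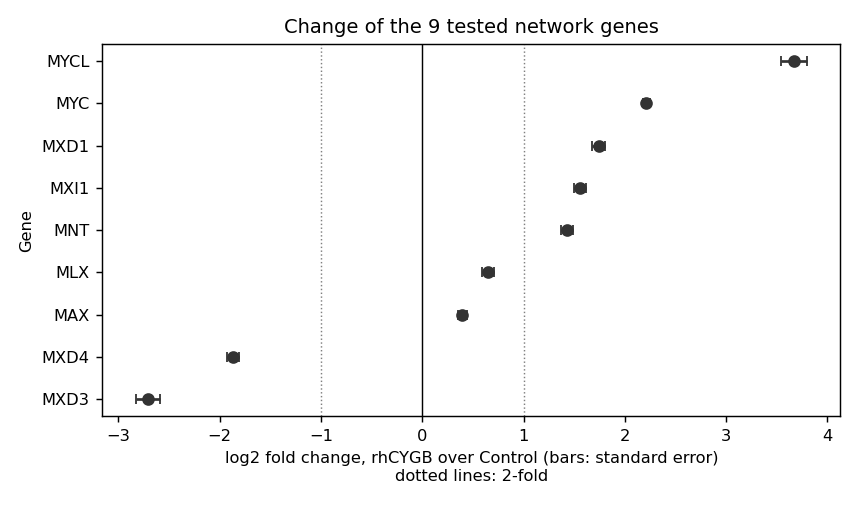
Log2 fold change of rhCYGB over Control for the 9 members tested, with bars of 1 SE from edgeR. MYCL lies highest at 3.67 and MXD3 lowest at -2.71, and MAX at 0.40 is closest to 0.

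The order of the members by FPKM, which allows levels of different genes to be compared, changed between the groups. In Control it ran MYC, MAX, MLX, MXD4, MXD3, MXI1, MNT, MXD1 and MYCL, from 83.9 down to 0.464 FPKM. The libraries of MAX and MLX overlapped there, as did those of MLX and MXD4, and all other neighbours were apart. After rhCYGB the order was MYC, MLX, MAX, MXI1, MNT, MYCL, MXD1, MXD4 and MXD3, from 340 down to 1.59 FPKM. MYCL, MXD1 and MXD4 could not be ordered, since MXD1 overlapped with each neighbour at 5.51, 5.39 and 5.14 FPKM for the 3 genes. MXD4 and MXD3 were thus the highest antagonists in Control, and after rhCYGB MXD3 was the lowest, while MXD4 could not be told from MXD1. MXD4 fell from 21.1 ± 0.683 to 5.14 ± 0.499 FPKM (SD, n = 3). MXD3 fell from 13.5 ± 0.816 to 1.59 ± 0.305 FPKM (SD, n = 3). MXI1, which rose from 5.52 ± 0.347 to 14.5 ± 0.948 FPKM (SD, n = 3), became the highest of the antagonists.

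Summed over the MAX partners among the members (the MYC and MXD genes, MXI1 and MNT), MYC made up 65.3%, 63.9% and 64.2% of the FPKM in Control and 89.0%, 88.9% and 89.5% after rhCYGB. MGA, a MAX partner that is not a member, was left out of the sum, at 2.79 FPKM in Control and 2.29 FPKM after rhCYGB. MXD4 made up 16.2% in Control and 1.35% after rhCYGB, and MXD3 10.4% and 0.419%, as group means. The shares of the rising antagonists moved little beside these, while the sum itself rose from 130 to 381 FPKM. That of MXD1 was 1.39% and 1.42%, that of MXI1 4.24% and 3.80%, and that of MNT 2.94% and 2.42%. The 5 antagonists together summed to 45.8 ± 0.496 FPKM (SD, n = 3) in Control and 35.9 ± 1.08 FPKM (SD, n = 3) after rhCYGB. The rises of MXD1, MXI1 and MNT thus did not make up for the falls of MXD3 and MXD4 on this scale. FPKM carry no TMM factors, and by limma on log2(FPKM + 0.1) the median log2 fold change of all genes tested was -0.15. The fall of the sum is best read against that shift. MXD3 and MXD4 gave 75.6% ± 1.43 of that sum in Control and 18.8% ± 1.89 after rhCYGB (SD, n = 3). The summed MYC genes exceeded the summed antagonists 1.84 ± 0.0549 times in Control and 9.64 ± 0.227 times after rhCYGB (SD, n = 3). Relative to MAX, MYC stood at 3.40 ± 0.0279 in Control and 11.6 ± 0.323 after rhCYGB, while the summed antagonists stood at 1.85 ± 0.0559 and 1.22 ± 0.00841 (SD, n = 3). These are ratios of mRNA and no protein was measured in these files.

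**Figure D3:**
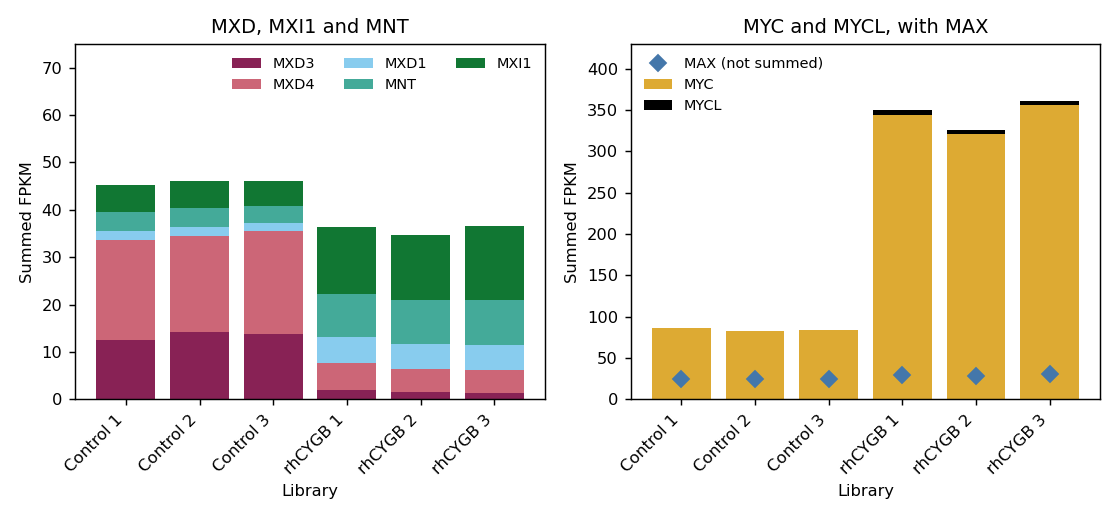
Stacked bars of summed FPKM for each of the 6 libraries, with the antagonists MXD1, MXD3, MXD4, MXI1 and MNT in the left panel and MYC with MYCL in the right panel, where diamonds give MAX. The antagonists sum to 45.2 to 46.1 FPKM in Control, mostly MXD3 and MXD4, and to 34.6 to 36.6 FPKM after rhCYGB, while the MYC genes rise from 82.9 to 86.1 up to 326 to 361 FPKM.

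The deposited transcript table lists 32 RefSeq transcripts of the members, of which 24 passed the filter. Of these, 10 were higher and 2 lower by 2-fold or more at an adjusted p under 0.05, by edgeR's quasi-likelihood test (Benjamini-Hochberg, 32577 transcripts). Over all transcripts tested 8.62% were higher and 8.32% lower by this rule, and 29.9% passed the adjusted p alone. The lower ones were NM_006454, the only transcript of MXD4, and NM_031300 of MXD3, whose log2 fold change was -3.21 ± 0.265 (SE). StringTie divides reads between transcripts that share most of their sequence, so the split within a gene is less certain than its total.

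Both MYC transcripts rose. The longer one, NM_001354870 (4515 bases), begins upstream of the shorter one, NM_002467 (3721 bases), and had a log2 fold change of 2.52 ± 0.048 (SE) against 1.87 ± 0.039 (SE). Its share of the MYC counts was 35.8%, 35.6% and 33.6% in Control and 47.5%, 46.0% and 44.1% after rhCYGB. The shares of the groups did not overlap, but the test of transcript usage across all genes (edgeR's diffSpliceDGE with Simes and Benjamini-Hochberg adjustment) gave an adjusted p of 0.676.

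Transcript usage passed that test in 1 of 7 members with more than 1 transcript tested, against 6.48% of all 7019 genes. The member was MAX, with an adjusted p of 0.0301. NM_001320415 of MAX took 0%, 1.87% and 0% of the counts in Control and 16.9%, 32.4% and 26.6% after rhCYGB. The difference in usage had a Benjamini-Hochberg adjusted p of 0.0151 by diffSpliceDGE, and 2.4% of all transcripts tested for usage were under 0.05. Its level, with a log2 fold change of 5.65 ± 1.82 (SE), did not pass. The adjusted p was 0.0706 by edgeR's quasi-likelihood test (Benjamini-Hochberg). Within the rhCYGB group the 2 main MAX transcripts were unsteady: NM_002382 had 352, 748 and 64 counts, and NM_145112 had 1022, 347 and 1442 counts, whereas the Control libraries were even. The adjusted p of MAX was between 0.0809 and 0.178 when Control 1, Control 3, rhCYGB 1, rhCYGB 2 or rhCYGB 3 was left out, and 0.00131 without Control 2. It was 0.833 when at least 10 counts were required in every library. The total of MAX does not depend on this split.

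For MXD3, the longer transcript NM_001142935, which reaches into the span of PRELID1, made up 6.83% ± 1.88 of the counts in Control and 31.2% ± 10.2 after rhCYGB (SD, n = 3). Its own counts were 39, 66 and 32 in Control and 25, 22 and 33 after rhCYGB, which overlapped. NM_031300 held a mean of 93.2% of the MXD3 counts in Control. It had 522, 697 and 622 counts there and 78, 61 and 44 after rhCYGB. The usage test gave MXD3 an adjusted p of 0.769, and 0.00226 when at least 10 counts were required in every library. MXD1 was at 0.282 for usage and at 0.00448 without rhCYGB 3. Its main transcript NM_002357 made up 96.5% ± 2.20 of the counts in Control and 75.5% ± 13.2 after rhCYGB (SD, n = 3). In MXI1, NM_005962 held 85.3% ± 8.47 in Control and 97.4% ± 1.19 after rhCYGB (SD, n = 3), with an adjusted p of 0.638 for usage.

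**Figure D4:**
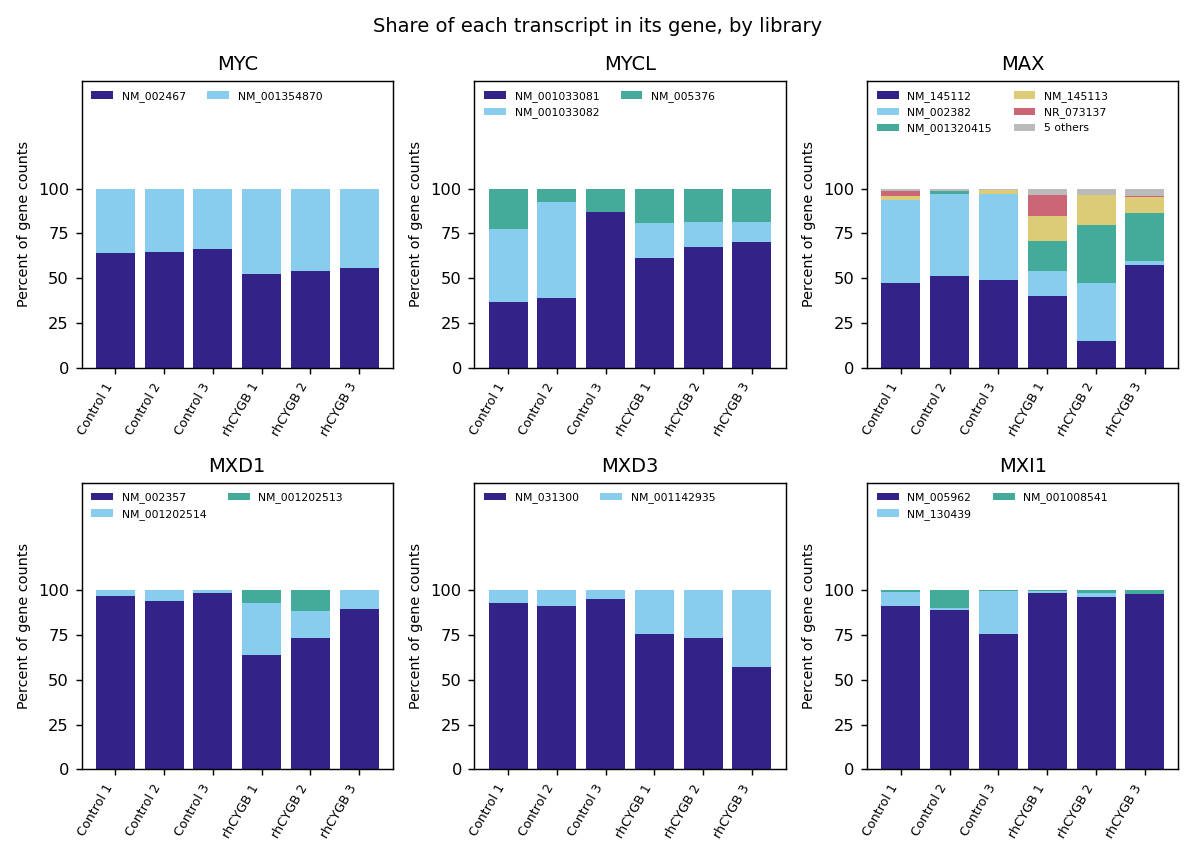
Stacked bars of the share of each transcript in the counts of its gene, in percent, for 6 members with several transcripts, with a bar for each library. The MYC split is even within a group, while the split of MAX differs among the 3 rhCYGB libraries, where NM_001320415 takes 16.9% to 32.4%.

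The genes around the network were described in lists taken from general knowledge, but written with earlier results of these data known. Each list was described by how many of its tested genes were higher or lower at an adjusted p under 0.05. Of all genes tested, 39% were higher and 38.6% lower by this rule. Of the other factors that read E-boxes with the same type of domain, 8 of 9 were tested, 6 were higher and 1 was lower, with a median log2 fold change of 0.76 (0.45 and 2 lower by limma on log2(FPKM + 1)). TFEB, a regulator of lysosome genes, rose with a log2 fold change of 2.86 ± 0.124 (SE). The MLX partners MLXIP and MLXIPL rose with 0.80 ± 0.055 and 0.63 ± 0.089 (SE). MITF, best known from melanocytes, had 0.95 ± 0.228 (SE), and USF1 was lower, with -0.71 ± 0.067 (SE). MGA, a MAX partner outside the MYC and MXD families, had -0.09 ± 0.054 (SE) and an adjusted p of 0.132 by edgeR's quasi-likelihood test.

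Of 11 cofactors and partners of MYC, most of them activating, 7 were higher and 3 lower, with a median log2 fold change of 0.21. With total-count or upper-quartile scaling 4 were higher and 4 lower, with medians of 0.041 and 0.065. With limma on FPKM 3 were higher and 4 lower. The median of all genes tested was -0.17 with total counts and -0.15 with upper-quartile scaling, against -0.0046 with TMM. Medians in this paragraph are best read against that shift. The acetyltransferase KAT5 (Tip60) rose with 2.20 ± 0.053 (SE), although it overlaps RNASEH2C. The ATPases RUVBL1 and RUVBL2, which act in the same acetyltransferase complex as KAT5, were lower, with -1.01 ± 0.038 and -0.50 ± 0.040 (SE). Of 14 genes of the SIN3 corepressor complex, through which the MXD proteins act, 7 were higher and 5 lower, with a median of 0.21 that was 0.049 with total counts and 0.073 with upper-quartile scaling. The subunits ING1 and ING2, which read methylated histone H3, rose with 1.06 ± 0.068 and 0.93 ± 0.105 (SE). The scaffolds SIN3A and SIN3B rose with 0.58 ± 0.048 and 0.33 ± 0.056 (SE). The deacetylase HDAC1 and the histone chaperone RBBP7 fell by 1.39 and 1.41 on the log2 scale. RBBP4 and HDAC2 were lower as well, with -1.17 ± 0.043 and -0.48 ± 0.037 (SE). By 2-fold or more, 1 gene of this complex was higher and 3 were lower, where 12.4% and 14.7% of all genes tested were. Overlaps were also present for RUVBL1, with EEFSEC and SEC61A1, and for RBBP7, with TXLNG.

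Of 15 genes that act on the stability of MYC protein, 5 were higher, 5 lower and 5 did not pass, with a median log2 fold change of -0.07. The split was not even under every scaling, since 10 were lower with total counts (median -0.23) and 8 with upper-quartile scaling (median -0.21). The median of all genes tested was itself -0.17 with total counts and -0.15 with upper-quartile scaling, against -0.0046 with TMM. The turnover list is best read against that shift. The deubiquitinase USP36 rose with 1.81 ± 0.049 (SE) and the scaffold AXIN1 with 1.42 ± 0.052 (SE). FBXW7, the F-box protein that marks phosphorylated MYC for degradation, rose with 1.16 ± 0.071 (SE). SKP2, another F-box protein that targets MYC, fell by 1.98 and the mitotic kinase AURKA by 1.72 on the log2 scale. Of 11 tested factors that act on MYC transcription or mRNA, 6 were higher and 3 lower, with a median of 0.11. Under total-count or upper-quartile scaling or limma on FPKM 5 were higher and 5 lower, with medians between -0.05 and -0.03. By limma the median of all genes tested was -0.086 on log2(FPKM + 1) and -0.15 on log2(FPKM + 0.1). The same shift thus applies to this list. CNBP, which binds the MYC promoter, had 0.96 ± 0.037 (SE), and PUF60, which restrains MYC transcription, had 0.61 ± 0.042 (SE). The mRNA-binding proteins IGF2BP3 and HNRNPD had -1.42 ± 0.040 and -0.57 ± 0.038 (SE), and IGF2BP3 overlaps MALSU1.

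Of 64 genes widely described as activated by MYC, 34 were higher, 20 lower and 10 did not pass, with a median log2 fold change of 0.16. These counts moved with the scaling. With total counts 25 were higher and 28 lower, with upper-quartile scaling 29 and 27, and with limma on FPKM 26 and 27. The medians of the list then lay between -0.01 and 0.01. The median of all genes tested moved down as well, from -0.0046 with TMM to -0.17 with total counts and -0.15 with upper-quartile scaling. By limma it was -0.086 on log2(FPKM + 1) and -0.15 on log2(FPKM + 0.1). The list is best read against that shift. By 2-fold or more, 10 of the 64 were higher and 4 lower with TMM, where 12.4% and 14.7% of all genes tested were. The largest rise was in HK2, the hexokinase that starts glycolysis in many tumours, from 60.6 to 648 CPM (log2 fold change 3.42 ± 0.041, SE). The nucleoside transporter SLC29A2 rose with 1.62 ± 0.054 (SE). The others higher by 2-fold were PPAN, SUPV3L1, RRP9, RCL1, AIMP2, DUSP2, BYSL and NOC4L, of which PPAN, RRP9, RCL1, BYSL and NOC4L act in ribosome production. PPAN and AIMP2 overlap other genes, the readthrough gene PPAN-P2RY11 and EIF2AK1, and their counts are less certain for that reason. MCM4, a subunit of the replicative helicase, fell by 1.62 and the mitotic kinase PLK1 by 1.12 on the log2 scale. MCM5 and the DNA repair enzyme UNG were the other 2 lower by 2-fold. The authors had already reported MCM4 and MCM5 as downregulated in this RNA-seq, so these falls were known beforehand. The list was therefore mixed: nucleolin (NCL) had -0.01 ± 0.030 (SE), the polyamine enzyme ODC1 rose with 0.89 ± 0.043 (SE) and LDHA fell by 0.95 on the log2 scale.

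Of 6 genes described as repressed by MYC, 5 were tested, 4 were higher and 1 was lower, with a median log2 fold change of 1.60. The authors had already reported CDKN1A, CDKN1B and GADD45A as upregulated in this RNA-seq, so the count of higher genes was partly known beforehand. GADD45A, a stress-inducible growth arrest gene, went from 38.6 ± 5.86 to 444 ± 17.3 CPM (SD, n = 3). NDRG1 went from 17.2 ± 0.985 to 138 ± 3.12 CPM (SD, n = 3). The cyclin-dependent kinase inhibitors CDKN1A and CDKN1B rose with log2 fold changes of 1.60 ± 0.078 and 0.91 ± 0.039 (SE). NDRG2 fell by 2.22 on the log2 scale, and it overlaps ARHGEF40. CDKN2B had 0 counts.

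Of 8 noncoding genes beside MYC or MYCN, 4 were tested, 3 were higher and none was lower. PVT1, the long noncoding RNA gene just downstream of MYC, had 477, 496 and 470 counts in Control and 1987, 1885 and 1879 after rhCYGB. Its log2 fold change of 2.19 ± 0.067 (SE) was close to that of MYC at 2.21. CCAT1, upstream of MYC, had 614, 636 and 485 counts in Control and 2391, 2172 and 2587 after rhCYGB, with a log2 fold change of 2.23 ± 0.085 (SE). CASC19 had 2.56 ± 0.266 (SE) on few counts. CASC8, in the same region, had -0.03 ± 0.196 (SE) with an adjusted p of 0.889 by edgeR's quasi-likelihood test (Benjamini-Hochberg).

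**Figure D5:**
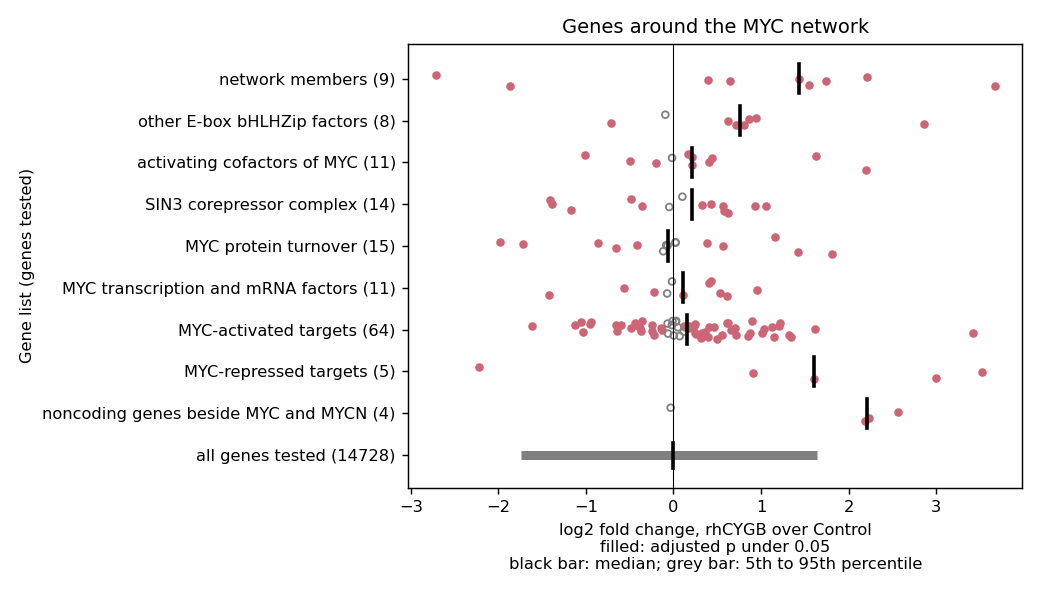
Log2 fold change of rhCYGB over Control for every tested gene of the network and of the lists around it, filled where the adjusted p was under 0.05, with a black bar at each median. The network members spread from -2.71 to 3.67, and the 64 MYC-activated targets spread around a median of 0.16, while the grey bar gives the 5th to 95th percentile of all genes tested.

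The genes whose pattern over the 6 libraries lay closest to that of MYC were LNX2, LURAP1L, KAT5, TAF1D and GARS1, by the Euclidean distance between log2 CPM profiles centred on their means. Their distances were 0.0937, 0.102, 0.105, 0.107 and 0.109, among 11535 genes compared, and 216 genes lay within 0.5. Their log2 fold changes were 2.16, 2.14, 2.20, 2.14 and 2.28. Since the groups differ far more than the libraries within them, the measure mainly finds genes with a similar fold change.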

How the data were processed

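RNA from 6 MIA PaCa-2 samples, 3 Control and 3 rhCYGB, was sequenced with a stranded mRNA kit. The submitters' processing notes name FastQC 0.11.7, HISAT2 2.1.0 and StringTie 2.1.3b. The authors deposited read counts and FPKM per RefSeq gene and per transcript. The processing notes name a mouse genome build, while the deposited features are human RefSeq genes. The human build of the deposited coordinates is not named. For MNT and MLX the deposited gene spans lie away from the E-box positions on GRCh38.p14. The gene spans and the E-box positions therefore cannot be set side by side. The deposited counts were whole numbers without normalization, and the deposited FPKM were scaled by the authors to depth and transcript length. The TPM columns that the authors deposited, scaled by them per transcript length and library, were not used.

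Counts were filtered with filterByExpr, scaled by TMM and tested with the quasi-likelihood test of edgeR 4.0.16 (R 4.3.3), fitted on all 14728 genes that passed, which held 99.97% of counts. Benjamini-Hochberg adjustment ran over all of them. Transcript usage was tested with diffSpliceDGE. limma 3.58.1 on log2(FPKM + 1) and log2(FPKM + 0.1), and DESeq2 1.42.0, served as alternatives, with other scalings, filters, a replicate block and each library left out. Each test was tried on simulated counts first. CPM and FPKM levels are means with SD over 3 libraries, and intervals for a count of 0 cover counting error only.

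The members and gene lists were chosen with earlier results of these data known. All members were named, and from each list the 2 genes with the largest rise and the 2 with the largest fall among those called, if their normalized counts averaged 100 or more in the higher group. Others, namely MLXIP, MLXIPL, MGA, SIN3A, SIN3B, RBBP4, HDAC2, FBXW7, NCL, ODC1, LDHA, CDKN1A, CDKN1B, CASC19 and CASC8, were added after their values were seen. So were the genes named as changed by 2-fold without values. A gene that this rule picks is not reported here.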

Additional observations from a re-analysis of the deposited data

How the results depend on the processing

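The 76 results were recomputed under up to 15 alternative settings, fewer for the transcript results, giving 1077 values, of which 1012 kept their direction and their side of the threshold or stayed within the set limits. Every tested member kept its direction and its call in all of them. The scaling changed several results on lists. The median log2 fold change of all genes was -0.0046 with TMM, -0.17 with total counts, -0.15 with upper-quartile scaling and -0.15 with limma on log2(FPKM + 0.1), and changes are best read against that shift. The share of 2-fold calls that were higher was 45.9% with TMM, 33.9% with total counts, 35.5% with upper-quartile scaling and 35.5% with limma on log2(FPKM + 0.1).

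The median of the factors acting on MYC transcription and mRNA turned negative with total counts (-0.0539), upper-quartile scaling (-0.0301), limma on log2(FPKM + 1) (-0.0430) and on log2(FPKM + 0.1) (-0.0431). That of the MYC-activated targets did so with total counts (-0.0104) and with limma (-0.00906 with a pseudocount of 1 and -0.00931 with 0.1). With total counts, upper-quartile scaling and both limma fits the lower genes went from 1 to 2 among the other E-box factors and from 3 to 5 among the factors acting on MYC transcription and mRNA. Among the cofactors and partners of MYC the higher genes went from 7 to 4 with total counts or upper-quartile scaling and to 3 with limma. Among the turnover genes the lower ones went from 5 to 10 with total counts and to 8 with the other 3 settings. Member transcripts higher by 2-fold went from 10 to 6 with at least 10 counts required in every library, since fewer transcripts were tested. Genes changed by 2-fold fell from 3998 to 1977 with limma on log2(FPKM + 1), a scale that compresses the fold of low genes. Leaving out single libraries gave 0 to 1 members with changed transcript usage. Apart from these, the cause of a change between settings was not tested.

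Same-numbered libraries did not deviate together, with correlations of deviations of -0.048, 0.0072 and 0.0055, and 2 of 6 libraries correlated best with their own number in the other group. A replicate block left 3978 genes called by 2-fold against 3998, kept 7 members higher and 2 lower, and gave MYC a log2 fold change of 2.21. MYCL and MXD3 had 49 to 103 counts per library in their lower group, and shares of transcripts with near-identical sequence also varied widely in MAX, which had far more counts.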
